A study of Mus musculus with 2 samples.

Results

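Proteoglycans are proteins that carry long sulfated sugar chains, the glycosaminoglycans. The 53 genes described here were taken as a named list from the gene tables by matching their GENCODE symbols. That rule itself uses no measured value, but the genes were chosen with earlier results of these data known. They are 53 of 43346 Ensembl genes in each table, of which 21474 are protein-coding. They comprise 20 core proteins, 5 enzymes of the linkage region and its sugar precursor, 17 heparan sulfate enzymes, 5 chondroitin enzymes and 6 hyaluronan genes. The samples were 2 libraries of total RNA from lungs of B6NCrl mouse embryos at embryonic day 15.5, male and female embryos pooled. The label gives 78 embryos for replicate 1 and 62 embryos for replicate 2. The embryos were healthy and untreated as far as the labels say, and there is no other genotype, age or tissue, so no condition could be compared. The biological replicate numbers mark 2 separate pools, and each pool has 1 library, so differences between pools cannot be told apart from those of library preparation.

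A proteoglycan is made in steps. A core protein first receives a short linkage sugar that starts with xylose. The chain is then built either as heparan sulfate, by exostosins, or as chondroitin sulfate, by chondroitin synthases, and sulfotransferases decorate it as it grows. Hyaluronan is a glycosaminoglycan without a core protein or sulfate, spun out at the cell membrane by hyaluronan synthases. In the developing lung, heparan sulfate on cell surfaces and basement membranes is known for binding growth factors of branching morphogenesis such as fibroblast growth factors, and chondroitin sulfate and hyaluronan fill the mesenchymal matrix.

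Levels are given as deposited, in TPM, the share of all transcripts in a table once reads are divided by transcript length, scaled to a fixed total. A gene counts as detected if each library gave it at least 1 TPM. The libraries held 40395850 and 36601054 reads assigned to features. Defining markers of lung were high: Sftpc, the surfactant protein C gene of distal lung epithelium, was at 6881 TPM in replicate 1 and 5864 TPM in replicate 2. The lung mesenchyme markers Tcf21 and Foxf1 were at 128 to 249 TPM across both libraries. The libraries differed in markers of other organs. The 3 liver genes (Alb, Afp, Apoa1) summed to 21.1 TPM in replicate 1 and 102 TPM in replicate 2, and the 3 heart and skeletal muscle genes (Myl2, Myh7, Acta1) to 47.8 TPM and 184 TPM. The 3 thymus genes (Cd3e, Lck, Ptcra) went the other way, at 37.2 TPM and 9.52 TPM. No gene of these 3 lists was at 0.

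The members covered a wide range of levels. Of the 53 genes, 43 (81.1%) were detected, against 60.7% of all protein-coding genes. The members were chosen with earlier results of these data known, so neither this share nor the medians below test the list against other genes. In both libraries 36 members reached 10 TPM and 9 members reached 100 TPM. The median level was 18.5 TPM in replicate 1 and 18.2 TPM in replicate 2, while that of all protein-coding genes was 4.99 TPM and 4.52 TPM. Among detected genes alone the gap was small, with a median of 24.0 TPM for the 43 members and 19.8 TPM for all protein-coding genes. The 10 members that were not detected were Acan, Ncan, Gpc5, Xylt1, Ndst3, Ndst4, Hs6st3, Has1, Has2 and Has3.

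The classes differed in level. Core proteins had the highest median, 50.4 TPM in replicate 1 and 46.7 TPM in replicate 2 (mean 48.6 ± 2.63, SD, n = 2). Linkage and precursor enzymes followed at 24.6 TPM and 21.04 TPM (22.8 ± 2.52). Heparan sulfate enzymes were at 15.1 TPM and 14.9 TPM (14.96 ± 0.148). This order, protein above linkage enzyme above chain enzyme, was the same in both libraries, and each gap was larger than the spread between them. It holds for the listed members only. Outside the list, other core proteins had medians of 1.17 TPM and 1.51 TPM, below other linkage enzymes at 13.8 TPM and 14.3 TPM. Other heparan sulfate enzymes were at 0.615 TPM and 0.505 TPM. Hyaluronan genes had a median of 4.46 TPM and 3.83 TPM, and chondroitin enzymes of 2.80 TPM and 2.74 TPM. The hyaluronan median lies between 3 genes above 7 TPM and 3 synthases below 1 TPM, and it was 18.5 TPM over the 3 detected genes alone. The chondroitin list holds only 5 genes, and the other enzymes of that branch, given further on, were at higher levels. With 1 group of 2 libraries no test between classes was made.

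**Figure D1:**
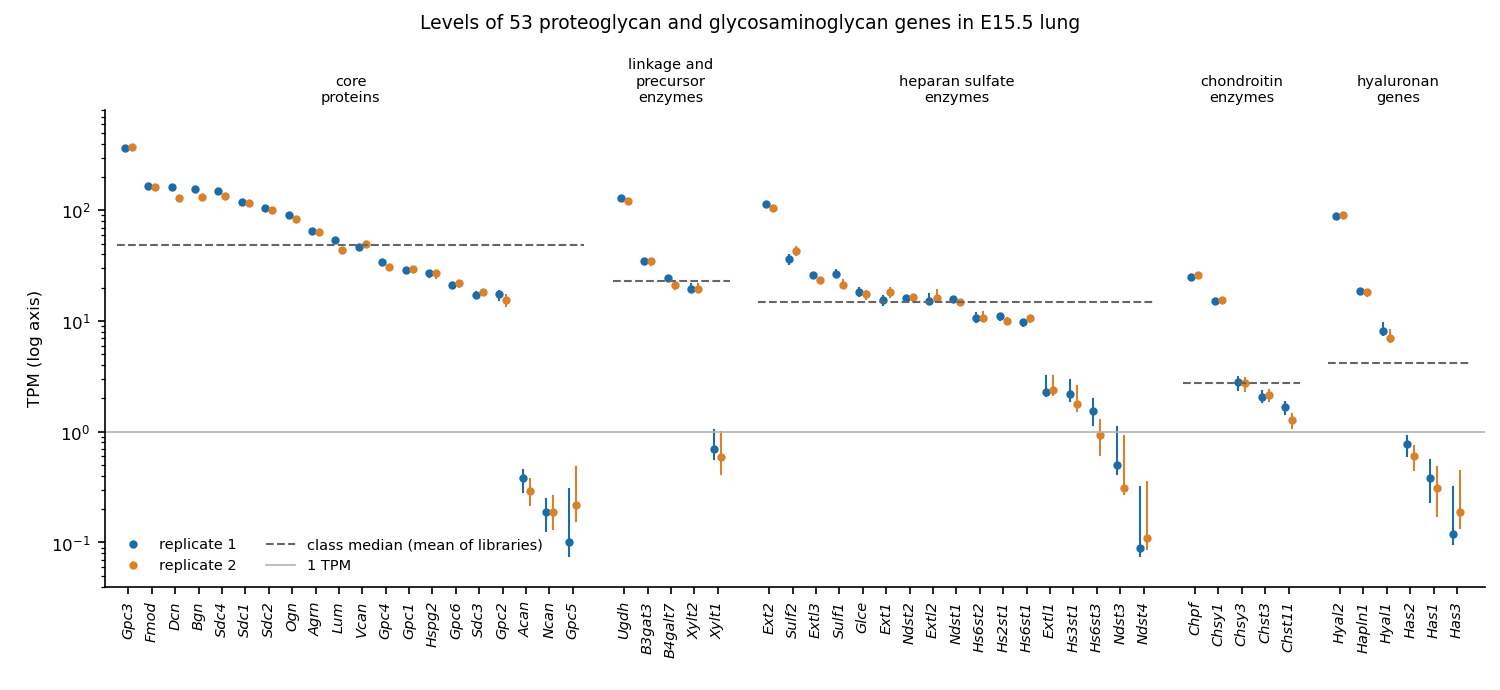
Level of each of the 53 members in TPM on a log axis, ordered within each class, with replicate 1 in blue and replicate 2 in orange. Vertical lines are the deposited TPM intervals, dashed lines the class medians (mean of both libraries) and the grey line marks 1 TPM. Gpc3 stands highest at 369 and 373 TPM, and 10 members have at least 1 library under the grey line.

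Among core proteins, the cell-surface heparan sulfate carriers and the small leucine-rich proteoglycans of the matrix held most of the signal. Summed over its members, the small leucine-rich family reached 631 TPM in replicate 1 and 549 TPM in replicate 2. The glypicans reached 471 TPM in both, and the syndecans 394 TPM and 371 TPM. The 2 basement membrane proteoglycans summed to 92.3 TPM and 90.4 TPM, and the 3 hyalectans, the large proteoglycans that bind hyaluronan, to 47.7 TPM and 50.2 TPM. Syndecans and glypicans together exceeded the basement membrane pair 9.37-fold in replicate 1 and 9.31-fold in replicate 2 (9.34 ± 0.0413, SD, n = 2). That pair leaves out Col18a1, a basement membrane proteoglycan outside the list, which alone was at 232 TPM and 215 TPM. In bulk tissue, fewer cells of a type and less RNA per cell cannot be told apart, which holds for every level given here.

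**Figure D2:**
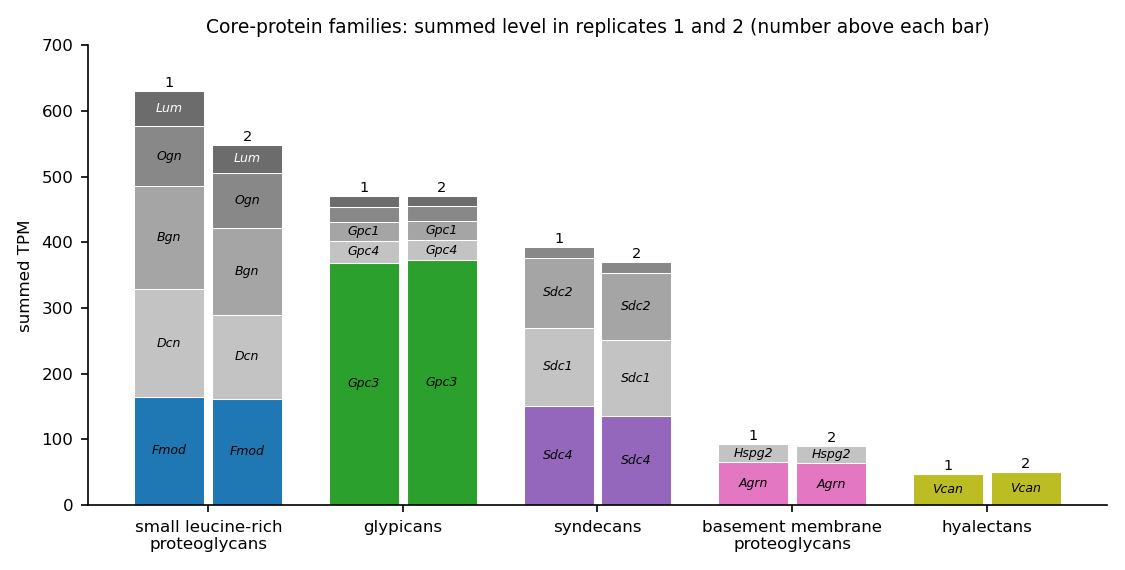
Summed TPM of 5 core-protein families, with a bar for replicate 1 and a bar for replicate 2 in each; segments are single genes and the coloured segment is the gene with the highest mean level. Gpc3 fills 78.4% and 79.2% of the glypican bars, whereas 5 small leucine-rich genes share theirs.

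Glypicans are heparan sulfate proteoglycans anchored to the membrane by a lipid. Gpc3 (glypican 3, ENSMUSG00000055653.9, X:52272426-52613950, minus strand, GRCm38) was at 369 TPM in replicate 1 and 373 TPM in replicate 2 (371 ± 2.71, SD, n = 2). It ranked 351 among the protein-coding genes by mean level and was the highest of the 53 members. Loss of human GPC3 causes the Simpson-Golabi-Behmel overgrowth syndrome. The other glypicans were more than 10 times lower. Gpc4 was at 34.0 TPM and 30.8 TPM, Gpc1 at 28.9 TPM and 29.5 TPM, and Gpc6 at 21.4 TPM and 21.98 TPM. Gpc4 and Gpc1 were not told apart, because their deposited intervals overlapped in replicate 2. Gpc2, known from the developing nervous system, was at 17.6 TPM and 15.6 TPM for the whole gene, but only 7.69 TPM and 7.91 TPM lay in its protein-coding transcript. In the newer annotation 55.6% of the exonic bases of Gpc2 are shared with Gm43720, a protein-coding gene on the same strand. The transcript Gm43720-201 was counted under Gpc2 here, at 0.20 TPM and 0.11 TPM, so its reads are in the Gpc2 total. For Gpc1, 18.9% overlap Ankmy1 on the other strand, and the use of strand in counting is not known. Gpc5 was at 0.10 TPM and 0.22 TPM, from 6 and 11 reads, where 3 reads would give 0.0516 TPM in replicate 1.

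Neighbouring glypican genes had unlike levels. Gpc3 and Gpc4 lie 107 kb apart on chromosome X, on the same strand, and differed 10.9-fold in replicate 1 and 12.1-fold in replicate 2. Gpc5 and Gpc6 lie 400.1 kb apart on chromosome 14, and there Gpc5, the upstream gene, was under 1 TPM while Gpc6 exceeded 20 TPM. On the X, Hs6st2, a heparan sulfate sulfotransferase, lies 371 kb from Gpc4 and was at 10.6 TPM and 10.7 TPM.

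Syndecans are heparan sulfate proteoglycans that cross the membrane. Sdc4 was at 151 TPM in replicate 1 and 135 TPM in replicate 2, Sdc1 at 119 TPM and 116 TPM, Sdc2 at 106 TPM and 102 TPM, and Sdc3 at 17.4 TPM and 18.2 TPM. Sdc1 is known as the syndecan of epithelia, Sdc2 of mesenchymal cells and Sdc3 of nerve cells, while Sdc4 is a component of focal adhesions in many cells. Every pair of the 4 syndecans was told apart by the deposited intervals in both libraries, in the same order. For Sdc2, Sdc3 and Sdc4 a single transcript held at least 97.4% of the gene's TPM in each library. Sdc1 was divided between Sdc1-201, at 68.3% and 72.0%, and Sdc1-205, at 30.6% and 26.5%, which have the same coding length of 933 nt.

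Of the 2 basement membrane proteoglycans in the list, agrin was the higher. Col18a1, outside the list, was above both, at 232 TPM and 215 TPM. Agrn was at 65.1 TPM and 63.4 TPM and Hspg2, the gene of perlecan, at 27.2 TPM and 27.0 TPM. Much of both TPM totals was assigned to short transcripts without an open reading frame, so the TPM in protein-coding transcripts was lower. By reads the coding share was larger. Protein-coding transcripts held 69.1% and 67.4% of the Agrn reads and 96.8% and 96.4% of the Hspg2 reads. Summed over protein-coding transcripts, Agrn was at 26.7 TPM and 25.04 TPM and Hspg2 at 16.6 TPM and 15.7 TPM. The highest Agrn transcript was Agrn-205, a retained-intron transcript of 2071 nt, at 36.2 TPM and 36.3 TPM. The highest coding transcript was Agrn-206, of 6891 nt, at 25.3 TPM and 24.5 TPM. Agrn-205 shares 71.3% of its bases with Agrn-206 and reaches 488 nt past its 3′ end. In Hspg2, the 820-nt Hspg2-202 was at 10.6 TPM and 11.4 TPM beside 12.1 TPM and 12.2 TPM for the 14187-nt Hspg2-201, and 89.0% of its bases lie in exons of the longer transcript. How the program divided reads over such overlapping transcripts was not tested.

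Agrin exists in a nerve-cell form, whose small exons near the 3′ end of the message give it the power to cluster acetylcholine receptors, and in forms of other tissues that lack them. The exons that mark that form are shown because the annotated Agrn transcripts differ in them. They are the 24-nt exon 34 (4:156168546-156168569) and the 33-nt exon 35 (4:156167777-156167809) of Agrn-203, minus strand, GRCm38, printed with the exon in capitals and 10 flanking bases in lower case.
24-nt exon: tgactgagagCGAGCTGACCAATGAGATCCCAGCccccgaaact
33-nt exon: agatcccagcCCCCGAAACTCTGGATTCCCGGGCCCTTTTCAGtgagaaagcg
Agrn-203, the transcript with both exons, was at 0 TPM in both libraries, with upper interval bounds of 0.639 TPM and 0.345 TPM. Agrn-206, the main coding transcript, has neither exon. The 24-nt exon is also part of the retained-intron transcript Agrn-205, so the gene's TPM does not show how often it was spliced into a coding message.

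Versican was the hyalectan of this tissue. Vcan (ENSMUSG00000021614.12, 13:89655312-89742509, minus strand, GRCm38) was at 47.1 TPM in replicate 1 and 49.7 TPM in replicate 2 (48.4 ± 1.83, SD, n = 2), from 7966 and 8010 reads. It held 98.8% and 99.04% of the summed TPM of the 3 hyalectans. Acan (aggrecan), the main proteoglycan of cartilage, was at 0.380 TPM and 0.290 TPM, and neurocan, Ncan, of the brain, at 0.190 TPM in both. The cartilage markers gave a median of 6.68 TPM and 6.90 TPM, with 6 of 8 genes detected and none at 0. Col2a1 was highest, at 17.2 TPM and 16.1 TPM. Matn1, at 0.52 TPM and 0.21 TPM, and Snorc, at 0.20 TPM and 0.21 TPM, were not detected.

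Versican is made in 4 forms that differ in its 2 large exons, which encode the parts that carry chondroitin sulfate chains. They are the 2880-nt exon 7 (13:89702918-89705797) and the 5217-nt exon 8 (13:89688285-89693501) of Vcan-203. The form V0 has both, V1 only exon 8, V2 only exon 7 and V3 neither. The junctions that tell them apart are shown from the GENCODE transcript sequences, with 20 bases of the upstream exon in lower case and 20 of the downstream exon in capitals.
V0 and V2, exon 6 to 7: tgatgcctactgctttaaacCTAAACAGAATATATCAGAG
V0, exon 7 to 8: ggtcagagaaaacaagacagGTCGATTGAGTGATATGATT
V1, exon 6 to 8: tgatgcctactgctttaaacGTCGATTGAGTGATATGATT
V2, exon 7 to 9: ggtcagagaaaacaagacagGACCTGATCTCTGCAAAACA
V3, exon 6 to 9: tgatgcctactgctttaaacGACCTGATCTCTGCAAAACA
V0 and V1, exon 8 to 9: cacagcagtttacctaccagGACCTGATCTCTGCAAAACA
Among the 9 annotated Vcan transcripts, each of the junctions 7 to 8, 6 to 8, 7 to 9 and 6 to 9 occurs in 1 transcript only.

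The V3 transcript, Vcan-201, was estimated at 19.4 TPM in replicate 1 and 19.6 TPM in replicate 2. V0, Vcan-203, was at 16.7 TPM and 17.3 TPM, and V1, Vcan-206, at 5.56 TPM and 7.28 TPM. V2, Vcan-202, was nearly absent, at 0 TPM and 0.130 TPM, and the largest upper bound was 0.552 TPM. Of the TPM in these 4 transcripts, V3 thus took 46.6% and 44.2%, V0 40.04% and 39.1%, and V1 13.4% and 16.4%. By reads the order was different, because V0 is much longer: V0 held 5431 and 5257 reads, V1 1210 and 1474, and V3 1139 and 1071. The V3 transcript is 2321 nt, all of it is contained in V0, and its own junction is the only stretch that sets it apart. Judged by reads per TPM, V0 is longer than V3 by more than the large exons, so their annotated ends differ too. How far the split depends on those ends was not tested. V0 exceeded V1 by 2.99-fold in replicate 1 and 2.38-fold in replicate 2 (2.69 ± 0.434, SD, n = 2). The intervals of V1 were apart between the libraries after scaling, higher in replicate 2, and so were those of V0, while those of V3 overlapped.

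**Figure D3:**
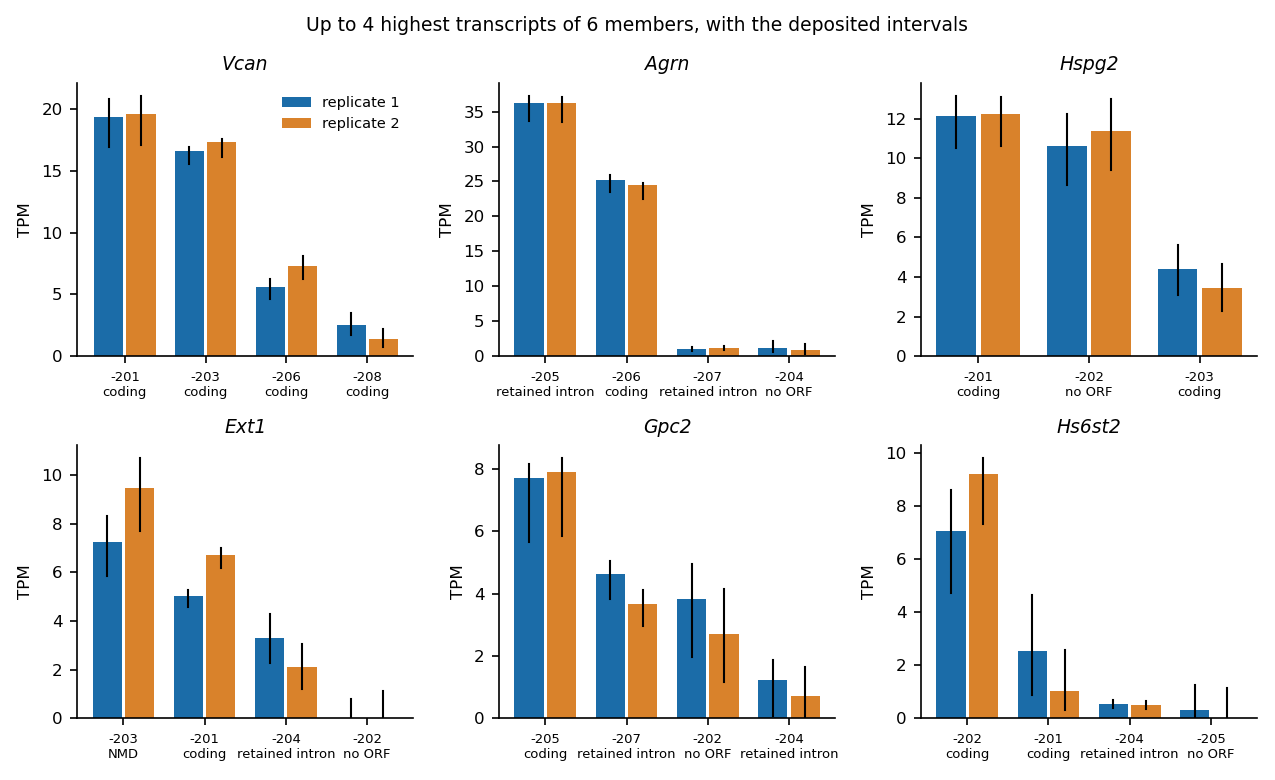
TPM of the transcripts with the highest mean level, up to 4 per gene, for Vcan, Agrn, Hspg2, Ext1, Gpc2 and Hs6st2; bars are replicate 1 (blue) and replicate 2 (orange) and vertical lines the deposited TPM intervals. Under each bar stands the transcript number with its annotated type (coding, retained intron, NMD for nonsense-mediated decay, no ORF for a processed transcript). The leading Agrn and Ext1 transcripts are not annotated as protein-coding.

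Small leucine-rich proteoglycans bind collagen fibrils and set their width and spacing. Fmod (fibromodulin, 1:134037254-134048277) was at 165 TPM in replicate 1 and 162 TPM in replicate 2. Dcn (decorin, 10:97479609-97518143) was at 164 TPM and 128 TPM, and Bgn (biglycan, X:73483602-73495933) at 157 TPM and 132 TPM. These 3 genes could not be ordered: the intervals of each pair overlapped in replicate 1, Fmod stood above both others in replicate 2, and Dcn and Bgn changed places between the libraries. This was the only one of the 14 families of paralogs whose order differed between the libraries. Ogn (osteoglycin) was lower, at 91.6 TPM and 83.7 TPM, and Lum (lumican) lower still, at 53.7 TPM and 43.7 TPM.

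Genes of this family lie in clusters, and their levels within a cluster were far apart. On chromosome 10, Lum starts 47.0 kb past the end of Dcn, followed on the same strand by Kera (keratocan) and Epyc (epiphycan). Dcn had a mean of 146 TPM and Lum of 48.7 TPM, while Kera was at 0.180 TPM and 0.290 TPM and Epyc at 0.770 TPM and 0.790 TPM. On chromosome 13, Ogn lies 15.2 kb from Omd (osteomodulin), which was at 0.990 TPM and 0.810 TPM, and 40.5 kb from Aspn (asporin), at 26.7 TPM and 25.2 TPM. On chromosome 1, Fmod lies 116 kb from Prelp, a related gene on the other strand, at 16.6 TPM and 14.2 TPM.

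The 3 hyalectans are each next to a link protein gene. Hapln1 lies 43.7 kb from Vcan on the other strand of chromosome 13 and encodes a link protein that locks hyalectans onto hyaluronan. It was at 18.9 TPM in replicate 1 and 18.2 TPM in replicate 2. At the other pairs both genes were low: Acan was under 0.4 TPM with Hapln3 at 1.25 TPM and 1.92 TPM, and Ncan was at 0.190 TPM with Hapln4 at 0.010 TPM in both.

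Turning to the enzymes, the only precursor gene in the list, Ugdh, stood above the listed linkage enzymes. Ugdh, which makes the UDP-glucuronic acid used in heparan sulfate, chondroitin sulfate and hyaluronan, was at 128 TPM and 120.3 TPM. Its protein-coding transcript held 64.1% and 62.7%, and a second transcript with 34.5% and 35.5% is not in the newer annotation, so its type is not known here. Of the 2 xylosyltransferases that start the linkage sugar, Xylt2 was at 19.6 TPM and 19.7 TPM and Xylt1 at 0.70 TPM and 0.59 TPM. Xylt2 thus held 96.6% and 97.1% of the pair's TPM. Of the later linkage enzymes, B4galt7, which adds the first galactose, was at 24.6 TPM and 21.04 TPM. B3gat3, which adds the closing glucuronic acid, was above Xylt2 in both libraries, at 35.1 TPM and 34.8 TPM.

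Ext1 and Ext2 form the complex that lengthens heparan sulfate, yet their transcripts were unequal. Ext2 (2:93661028-93822568) was at 113 TPM in replicate 1 and 104 TPM in replicate 2, and Ext1 at 15.6 TPM and 18.3 TPM. The ratio was 7.27 in replicate 1 and 5.70 in replicate 2 (6.49 ± 1.11, SD, n = 2). Counting protein-coding transcripts alone widened it, since only 5.01 TPM and 6.72 TPM of Ext1 lay in its coding transcript Ext1-201. Ext1-203, a 1554-nt transcript annotated as a target of nonsense-mediated decay, was at 7.25 TPM and 9.47 TPM, and all its bases lie in exons of Ext1-201. Coding transcripts held 74.3% of the Ext1 reads in replicate 1 but 32.2% of its TPM. Ext2 had 97.8% and 97.7% of its TPM in coding transcripts.

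The exostosin-like genes followed. Extl3, which starts the heparan sulfate chain, was at 26.3 TPM and 23.6 TPM. Extl2, which can end a chain, was at 15.1 TPM and 16.3 TPM, and Extl1 was low at 2.30 TPM and 2.37 TPM. Extl2 and Ext1 were not told apart in either library.

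Of the enzymes that modify heparan sulfate, those acting first had 2 paralogs at close levels and the others under 1 TPM. The N-deacetylase/N-sulfotransferases, which make the first change to the chain, were represented by Ndst2, at 16.3 TPM and 16.4 TPM, and Ndst1, at 15.8 TPM and 14.9 TPM. The 2 genes were not told apart in replicate 1, and Ndst2 stood above Ndst1 in replicate 2. Ndst3 was at 0.50 TPM and 0.31 TPM and Ndst4 at 0.0900 TPM and 0.110 TPM, the latter from 7 reads in each library. Glce, the epimerase that turns glucuronic into iduronic acid, was at 18.5 TPM and 17.4 TPM, and Hs2st1, which sulfates the product, at 11.0 TPM and 10.0 TPM. Hence every step up to this point had at least 1 gene above 9 TPM in both libraries.

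The 6-O-sulfotransferases Hs6st2 and Hs6st1 were likewise close, at 10.6 TPM and 10.7 TPM for Hs6st2 and 9.88 TPM and 10.6 TPM for Hs6st1, with intervals that overlapped in both libraries. Which of them led depended on the transcripts counted: with protein-coding transcripts alone, Hs6st1 had a mean of 9.99 TPM and Hs6st2 of 9.89 TPM. Hs6st3 was at 1.55 TPM and 0.930 TPM, from 54 and 30 reads. Hs3st1, which adds the rare 3-O-sulfate, was at 2.19 TPM and 1.77 TPM, the only member of its group in the list.

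Hs6st2 has a short and a long coding form. They differ by a 33-nt exon 3 (X:51471374-51471406) and an 87-nt exon 4 (X:51428658-51428744) of Hs6st2-201, minus strand, GRCm38, shown in capitals with 10 flanking bases because the libraries gave different shares.
Hs6st2 exons 3 and 4: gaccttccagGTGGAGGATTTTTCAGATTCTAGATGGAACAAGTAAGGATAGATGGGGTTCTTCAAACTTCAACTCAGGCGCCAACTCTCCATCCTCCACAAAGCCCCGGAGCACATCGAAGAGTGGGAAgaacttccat
The short form without these exons, Hs6st2-202, held 66.6% of the gene's TPM in replicate 1 and 85.9% in replicate 2. The long form, Hs6st2-201, held 23.9% and 9.44%. Its intervals ran from 0.875 TPM to 4.66 TPM in replicate 1 and from 0.321 TPM to 2.56 TPM in replicate 2, and they overlapped.

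The extracellular sulfatases Sulf1 and Sulf2 remove 6-O-sulfate from finished chains. Sulf2 was at 36.6 TPM in replicate 1 and 43.1 TPM in replicate 2, and Sulf1 at 26.7 TPM and 21.4 TPM. Sulf2 was above Sulf1 in both libraries, 1.37-fold and 2.02-fold (1.69 ± 0.457, SD, n = 2). They moved in opposite directions between the libraries, so their sum was nearly the same, at 63.2 TPM and 64.5 TPM. Both exceeded every 6-O-sulfotransferase in the list.

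Of the chondroitin enzymes, the polymerizing factor Chpf was at 25.04 TPM and 26.2 TPM, and the synthase Chsy1 at 15.3 TPM and 15.6 TPM. Chsy3 was lower, at 2.80 TPM and 2.74 TPM, and all 3 were told apart from each other in both libraries. Chst3, which sulfates position 6 of the chain's galactosamine, was at 2.08 TPM and 2.13 TPM, and Chst11, which sulfates position 4, at 1.69 TPM and 1.29 TPM. These sulfotransferases overlapped in replicate 1 and were apart in replicate 2.

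Of the hyaluronan genes, the synthases were low and the hyaluronidases higher. Has2, the hyaluronan synthase needed for heart formation in the embryo, was at 0.770 TPM in replicate 1 and 0.600 TPM in replicate 2, from 84 and 61 reads. Has1 was at 0.380 TPM and 0.310 TPM and Has3 at 0.120 TPM and 0.190 TPM. All 3 were above the 3-read level in both libraries but none reached 1 TPM. The hyaluronidase Hyal2 (9:107567945-107572779), bound to the cell surface, was at 88.8 TPM and 91.4 TPM. Hyal1, the lysosomal enzyme, was at 8.14 TPM and 7.06 TPM, of which 5.45 TPM and 4.22 TPM lay in its protein-coding transcript. The summed hyaluronidases exceeded the summed synthases 76.3-fold in replicate 1 and 89.5-fold in replicate 2 (82.9 ± 9.33, SD, n = 2). Hyal1 lies 4.15 kb past Hyal2 on the same strand, and in the newer annotation 51.9% of its exonic bases overlap those of Hyal3 and Naa80, so its level is uncertain.

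Altogether, the leading gene was the same in both libraries in 14 of 14 families, and the full order in 13 of 14. Of 64 pairs within families, 52 were told apart by the deposited intervals in the same direction in both libraries. The 12 pairs that were not were, beside those given above, Acan with Ncan, Ndst3 with Ndst4, and Has1 with both Has2 and Has3. The level of confidence of these intervals is not given in the sources used here, and they cover a single library, not the spread between pools.

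The pathway also has genes outside the list of 53. Over 8 further lists, 61 of 81 genes were detected. Of the other core proteins, 11 of 20 were detected, with medians of 1.17 TPM in replicate 1 and 1.51 TPM in replicate 2. The highest was Col18a1, whose protein carries heparan sulfate in basement membranes, at 232 TPM and 215 TPM. Srgn (serglycin, of blood cell granules) followed at 42.6 TPM and 35.9 TPM, and Aspn at 26.7 TPM and 25.2 TPM. The lowest was Bcan (brevican, of brain) at 0.0600 TPM and 0.150 TPM. Also under 1 TPM in at least 1 library were Omd, Epyc, Kera, Podn, Podnl1, Prg4, Esm1 and Spock1.

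All 3 other linkage enzymes were detected, with Fam20b, the xylose kinase, at 20.9 TPM and 20.5 TPM, B3galt6, which adds the next galactose, at 13.8 TPM and 14.3 TPM, and the phosphatase Pxylp1 at 13.7 TPM and 12.6 TPM. By contrast, 3 of 8 other heparan sulfate enzymes were detected. These were Hpse2 at 5.58 TPM and 5.86 TPM, the heparanase Hpse at 4.25 TPM and 4.28 TPM, and the 3-O-sulfotransferase Hs3st6 at 2.09 TPM and 2.83 TPM. The other 3-O-sulfotransferases Hs3st2, Hs3st3a1, Hs3st3b1, Hs3st4 and Hs3st5 were under 1 TPM in both libraries, and Hs3st4 had 4 reads in replicate 1 and 0 in replicate 2. No 3-O-sulfotransferase exceeded 3 TPM, listed members included.

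The chondroitin branch was fuller than its 5 listed members. Of the other chondroitin and dermatan enzymes, 10 of 11 were detected, with medians of 16.2 TPM and 14.1 TPM. Chst14, which sulfates dermatan, was highest at 29.8 TPM and 26.6 TPM. Dse, the epimerase that turns chondroitin into dermatan, was at 24.5 TPM and 26.9 TPM, and Chst12, a 4-O-sulfotransferase, at 17.9 TPM and 18.6 TPM, above Chst11. Chst13 was lowest, from 4 reads and 1 read. In keratan sulfate synthesis, 5 of 5 matched genes were detected, and B4galt4 at 31.5 TPM and 31.2 TPM, Chst5 at 11.5 TPM and 10.9 TPM and Chst2 at 10.3 TPM and 10.2 TPM led. The lowest was Chst1 at 1.71 TPM and 1.51 TPM.

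Hyaluronan receptors were well represented. Hmmr, also a spindle protein of dividing cells, was at 48.0 TPM and 43.2 TPM, Lyve1, of lymphatic vessels and macrophages, at 46.2 TPM and 40.3 TPM, and the receptor Cd44 at 26.1 TPM and 25.1 TPM. Of the 13 genes of this list 8 were detected, and Hyal3, Hapln2 and Hapln4 were under 1 TPM in at least 1 library. Hyal4 and Spam1, hyaluronidases of other tissues, had 0 reads in both libraries.

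The sulfate donor and breakdown lists were detected in full. Of the 9 genes of sulfate and sugar donors, Papss1, which makes the sulfate donor PAPS, was at 85.5 TPM and 77.6 TPM, Ugp2 at 80.3 TPM and 74.9 TPM and the PAPS transporter Slc35b2 at 77.2 TPM and 72.6 TPM. The isoenzyme Papss2 was lowest, at 2.68 TPM and 2.53 TPM, and Papss1 exceeded it in both libraries. The 13 lysosomal breakdown genes had medians of 19.0 TPM and 17.1 TPM, led by Hexa at 57.5 TPM and 56.9 TPM, Gusb at 55.0 TPM and 55.2 TPM and Glb1 at 40.3 TPM and 35.7 TPM. The lowest was Ids, the iduronate sulfatase, at 2.49 TPM and 1.98 TPM.

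Differences between the libraries were read after trimmed-mean (TMM) scaling, as the log2 ratio of replicate 2 over replicate 1 in scaled TPM + 0.1. A gene was called apart at a ratio of 2-fold or more, a mean of 5 TPM or more and deposited intervals that did not overlap. Of the 38 members with a mean of 5 TPM or more, 0 were apart, against 0.355% of 11261 genes tested (40 genes). By an exact binomial test of the reads with Benjamini-Hochberg adjustment over all genes tested, 0 members were past 2-fold, and 17 of 38 passed at any fold, against 22.8% of all genes. At an unadjusted p under 0.05 there were 22 of 38, against 33.7%. That test compares these 2 libraries and covers counting error only. It calls smaller differences where reads are many, and the shares over all genes are not matched for level.

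The median log2 ratio of the 44 members with a mean of 1 TPM or more was 0.03, and that of 15152 genes 0.01. The lowest member was Hs6st3 at -0.62 and the highest Sulf2 at 0.31. Among the 9 members of 100 TPM or more, ratios ran from -0.28 to 0.09. All 1688 genes of that level had a median of 0.06 and an SD of 0.10.

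Intervals were also compared without a minimum fold in the 38 members with a mean of 5 TPM or more. Those of 5 members lay apart with the lower value in replicate 2, against 4.32% of all genes. Those of 5 lay apart with the higher value, against 9.21%. These shares over all genes are not matched for level either. The lower ones were Dcn (log2 ratio -0.28), Sulf1 (-0.25), Lum (-0.23), Bgn (-0.18) and Sdc4 (-0.09). Dcn and Lum, neighbours on chromosome 10, were 1.22-fold and 1.17-fold higher in replicate 1. The higher ones were Sulf2 (0.31), Ext1 (0.30), Vcan (0.15), Hyal2 (0.11) and Gpc3 (0.09). The intervals of Ext1, Vcan, Hyal2 and Gpc3 overlapped as deposited and lay apart only after scaling. Those of Sulf2 and of the 5 lower genes lay apart as deposited too. These 10 genes were named after their values were seen, and the widest difference was 1.24-fold, for Sulf2. The mesothelium markers Upk3b, Msln and Wt1 were also lower in replicate 2. They summed to 56.6 TPM in replicate 1 and 43.7 TPM in replicate 2, with ratios from -0.49 to -0.25. Markers of thymus were lower too, with ratios from -2.53 to -1.51, and those of endothelium, from -0.08 to -0.02. All listed markers of liver, smooth muscle, and heart and skeletal muscle were higher in replicate 2. The 4 mesenchyme markers had ratios from -0.03 to 0.12. The part of mesothelial, liver, muscle, thymus or other RNA in the differences of the 10 members was not tested. In Bgn, the short processed transcript Bgn-208 fell from 30.5 TPM to 14.2 TPM, and the coding transcript went from 122 TPM to 114 TPM. After scaling, the intervals of Bgn-208 lay apart and those of the coding transcript overlapped.

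**Figure D4:**
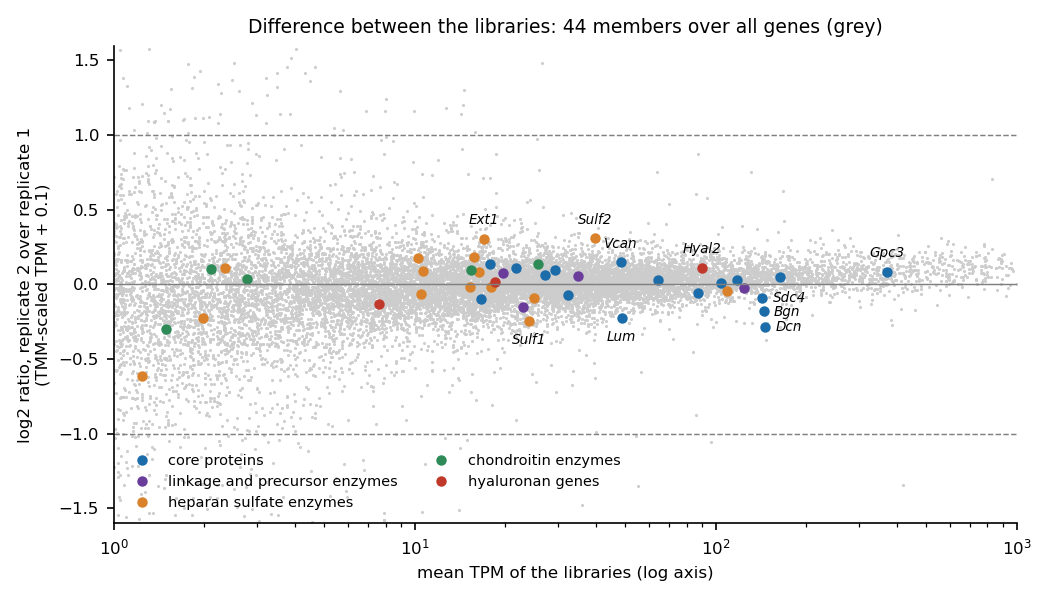
Log2 ratio of replicate 2 over replicate 1 (TMM-scaled TPM + 0.1) against the mean TPM on a log axis, for the 44 members with a mean of 1 TPM or more, coloured by class, over all genes in grey; both axes are limited to the range shown. Dashed lines mark 2-fold, which no member reached. The 10 named members are those whose deposited intervals lay apart after scaling.

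In the transcript tables, 16 members had a single transcript and 32 of the 43 detected members had at least 2. The leading transcript was the same in both libraries for 31 of these 32, against 92.4% of protein-coding genes with 2 or more transcripts. The exception was Gpc6, led by Gpc6-202 in replicate 1 at 41.5%, with Gpc6-201 at 41.4%, and by Gpc6-201 in replicate 2 at 45.3%. For 11 members the shared leader held under 60% in at least 1 library. Beside Vcan, Agrn, Hspg2, Ext1, Gpc2 and Hyal1 these were Extl2, Glce, Sulf1, Sulf2 and Chst3. In Sulf1 the leader Sulf1-202 held 33.7% and 46.2%, in Sulf2 Sulf2-202 held 39.4% and 39.96%, and in Glce Glce-203 held 44.4% and 46.0%. Extl2-201 held 47.1% and 52.3%, and Chst3-202 56.97% and 50.6%.

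In 10 of the 43 detected members (23.3%), under 90% of the TPM lay in protein-coding transcripts in both libraries, while this was so for 30.3% of 13007 detected protein-coding genes. Ext1 had the smallest coding share, 32.2% and 36.7%, followed by Agrn with 41.0% and 39.5% and Gpc2 with 43.7% and 50.7%. The others were Hspg2, Ugdh, Hyal1, Bgn, Chpf, Gpc6 and Xylt2. By reads in place of TPM, the coding shares of Hspg2, Bgn and Xylt2 were over 90% in both libraries. The median coding share of the detected members was 100% in replicate 1 and 99.5% in replicate 2.

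**Figure D5:**
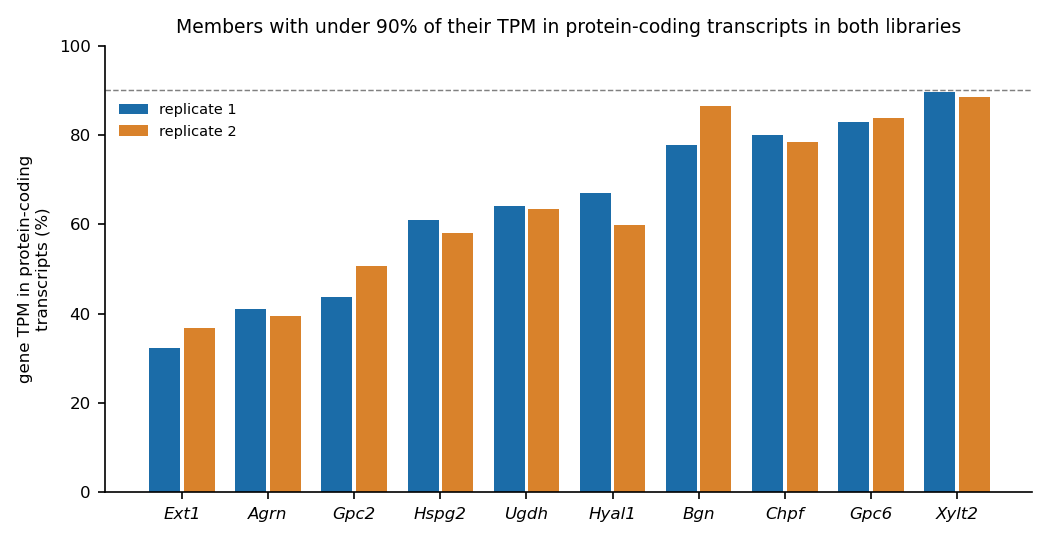
Share of the gene's TPM, in percent, in transcripts annotated as protein-coding, for the 10 detected members under 90% (dashed line) in both replicate 1 (blue) and replicate 2 (orange). Ext1, Agrn and Gpc2 stand lowest. For Ugdh the remainder is mainly a transcript that the newer annotation does not hold.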

How the data were processed

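Total RNA of 2 pools of embryonic lung, 10 ng each and molecules over 200 nt, was sequenced, per the labels' protocols. The authors deposited a gene and a transcript table per library. Per the file headers these hold expected counts, TPM, FPKM, posterior means and a TPM interval, here treated as a score since its level is not stated, and in the transcript tables the percent of a gene's TPM per transcript. The build is mm10 (GRCm38), per the labels; no header or label names the aligner, the quantifier or its use of strand (not given in the sources used here). Interval bounds surround the posterior mean, and the TPM of 3 members lay outside them in each library. The genes were counted with GENCODE M4, per the notes deposited with each library, and named from GENCODE M21 (98.0% matched); 26345 features that are not Ensembl genes stayed out, with 2.14% and 2.37% of reads.

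Rounded expected counts gave TMM factors (edgeR 4.0.16), which raised log2 ratios by 0.07. DESeq2 1.42.0 size factors, other thresholds, posterior means, FPKM, an exact binomial test (scipy) and leaving out a library were alternatives. Intervals and 3-read levels cover counting error only. All 53 members are named, and of each further list the 3 highest, the lowest and those under 1 TPM. Members and lists were chosen with earlier results of these data known. Chst6 was not analysed here.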

Additional observations from a re-analysis of the deposited data

How the results depend on the processing

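The count of detected members stayed between 38 (5 TPM in place of 1 TPM) and 46 (0.5 TPM), with 42 by FPKM, 43 by posterior means, and 43 to 44 without a replicate. No member was called apart under the 7 alternatives. The median log2 ratio was -0.04 without scaling and 0.03 under the other 4. Over members of 1 TPM or more, the median was 64.3 TPM for core proteins, 28.9 TPM for linkage enzymes, 16.0 TPM for heparan sulfate enzymes and 18.5 TPM for hyaluronan genes. With TMM-scaled TPM it was 15.3 TPM for heparan sulfate and 2.84 TPM for chondroitin enzymes, and with posterior means 2.725 TPM for chondroitin enzymes. With protein-coding transcripts alone, an alternative chosen after seeing the data, it was 38.8 TPM for core proteins, 10.7 TPM for heparan sulfate enzymes and 2.76 TPM for hyaluronan genes. Of the 53 member levels, 17 moved by over 1 SD between libraries with posterior means and 17 with scaled TPM. Of the 14 family leaders, all 14 were the same genes by posterior means, by FPKM and without either replicate, and 13 with protein-coding transcripts alone. Of the 64 pairs, 56 were told apart in each single library. The further lists had 46 genes at 5 TPM and 67 at 0.5 TPM. The leading transcript was shared for 31 members by posterior means and for 28 at 5 TPM or more, and could not be compared without a replicate. No paired analysis was possible because there is a single group. With 2 libraries, no spread within a condition beyond these pools can be given.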
